A study of Mus musculus with 12 samples.

Results

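The genes described here are the 7 ligands of the EGF receptor (Egf, Hbegf, Areg, Ereg, Tgfa, Btc and Epgn) and 3 receptors of the family (Egfr, Erbb2 and Erbb3), taken by gene symbol from a table of 56722 genes. All 10 were found in it, and 9 had enough counts to be tested among 19821 genes. Epgn did not. Whole kidneys of Pod-TRECK mice were sequenced after poly(A) selection. In these mice podocytes carry a receptor for diphtheria toxin, and the toxin kills the cells that carry it. Control mice had the same genotype and were left untreated, and the other 3 groups were collected 5, 14 or 21 days after an intraperitoneal injection of 100 ng of diphtheria toxin. Each group had 3 mice, or 12 libraries in all, with 31023852 to 46420299 counts per library. The sources used here do not name the promoter that drives the receptor, or the age and sex of the mice.

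The EGF receptor is a tyrosine kinase of the cell surface. Its ligands are made as membrane-bound precursors, and proteases of the ADAM family cut them free. Bound EGF receptor pairs with itself or with its relatives ErbB2, which has no known ligand of its own, and ErbB3, which has a weak kinase, and the pairs signal through RAS and the kinase ERK. In the kidney, Egf is made mainly by the thick ascending limb of the loop of Henle and by the distal convoluted tubule, while the receptor is found along the tubule. HB-EGF, the product of Hbegf, is also the protein to which diphtheria toxin binds. The human protein binds it and the mouse protein hardly does, so mice are made sensitive with a transgene. Whether reads of a human transgene were counted under the mouse gene could not be told from the table.

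Levels are given as CPM, the count of a gene per 1000000 counts of a library size scaled by TMM, a factor that centres most genes on no change. Podocyte markers checked the labels. Their summed level was 263 to 283 CPM in controls and 82.5 to 99.5 CPM at day 5, and 4 of 5 markers fell. Day-21 replicate 2 stood apart from its group. On the first principal component it lay at -36.8, against 73.0 and 80.1 for the other day-21 libraries and -44.5 to -37.4 for day 5, and its podocyte markers summed to 211 CPM. Results that rest on it are given with and without it. The TMM factors also differed by group, with group means of 0.793 (control), 0.876 (day 5), 1.31 (day 14) and 1.11 (day 21). Transcripts of the mitochondrial genome took 22.4 to 23.7% of counts in controls and 8.98 to 9.46% at day 14. Scaling to library totals alone shifted the median gene upwards, on the log2 scale, by 0.14 at day 5, 0.73 at day 14 and 0.49 at day 21, and values on this scale are given where it changed a call or a direction.

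Among the 10 genes, Egf lost most of its transcript, Areg and Ereg appeared from almost no counts in controls, and the fitted fold changes of the 3 receptors were under 1.5 in each comparison on the TMM scale. Of the 9 members tested, Hbegf and Areg rose and none fell at day 5, where 9.77% of all tested genes rose and 5.09% fell. Btc was the 1 member below control at day 5 with an unadjusted p under 0.05 in edgeR's fit of all 12 libraries. In edgeR's fit of only the 6 libraries compared, Egf and Btc both fell (adjusted p = 4.26e-05 and 0.0267), where 3470 of 18180 genes fell. No fall at day 5 was called by limma-voom, or by DESeq2, which gave no adjusted p for Egf. At day 14 Areg, Ereg and Erbb2 rose and Egf fell, against 31.2% and 28.8% of all genes. At day 21 Areg, Ereg, Btc and Erbb2 rose and Egf fell, against 24.3% and 18.5%. The median log2 fold change of the 9 members was 0.33, 0.23 and 0.34 at the 3 days, beside 0.00351, 0.0766 and 0.0671 for all genes. The 3 comparisons share their control mice. All calls are from edgeR's quasi-likelihood test at a Benjamini-Hochberg adjusted p under 0.05 over all genes, with n = 3 libraries per group.

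All groups share 1 estimate of the spread, and in the fit without day-21 replicate 2 more genes passed. At day 5 Ereg and Egfr then also rose and Egf and Btc fell, so that 4 members rose and 2 fell, against 17.4% and 14.9% of all genes. At day 14 the counts were again 3 and 1, against 34.7% and 30.9%, and at day 21 they were 4 and 1, against 33.2% and 28.4%. Scaled to library totals, 7 members rose and 1 fell at day 14, where 66.4% of all genes rose and 11.2% fell.

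**Figure D1:**
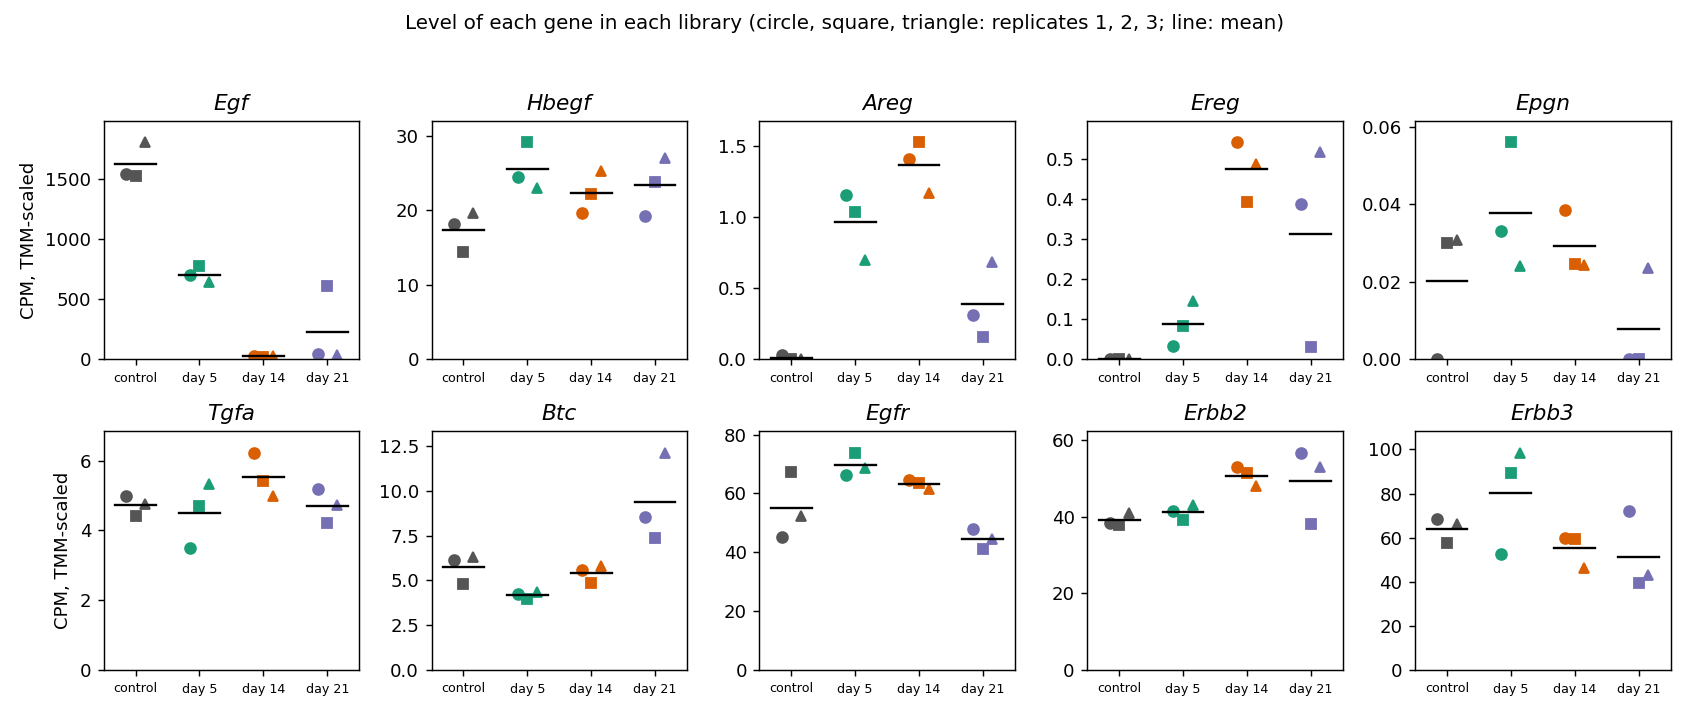
Level of each of the 10 genes in each library (vertical axis, CPM on TMM-scaled library sizes, from 0, with a separate range per gene). Circles, squares and triangles are replicates 1, 2 and 3 of each group and the line is the group mean. The 3 day-14 libraries of Egf lie at 22.9 to 27.5 CPM against 1519 to 1801 CPM in controls, and day-21 replicate 2 (square) lies at 611 CPM.

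Promoters are shown for 3 members. These are Egf, which fell, Areg, which rose from near 0 by day 5, and Btc. The last lies near Areg on the same chromosome and rose at day 21. Each is the 250 bases before the first RefSeq start site in build GRCm38.p6, read 5′ to 3′ on the gene's strand. Sequences of 7 of the 10 members were kept for this step. Hbegf, Ereg and Erbb3 were not among them, which does not mean that they have no RefSeq promoter. Capitals mark matches, on either strand, to 5 motifs: the TATA box (TATAAA), the CCAAT box (CCAAT), the GC box (GGGCGG), the AP-1 site (TGANTCA) and the cyclic AMP response element (TGACGTCA). No pair of these marked matches overlaps.
Areg, chr5:91139349-91139598, plus strand: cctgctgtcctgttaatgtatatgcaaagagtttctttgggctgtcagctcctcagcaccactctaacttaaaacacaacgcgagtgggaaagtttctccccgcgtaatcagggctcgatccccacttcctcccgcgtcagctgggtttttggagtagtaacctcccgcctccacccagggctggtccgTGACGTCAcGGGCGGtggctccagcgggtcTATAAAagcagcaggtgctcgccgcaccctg
Egf, chr3:129755323-129755572, minus strand: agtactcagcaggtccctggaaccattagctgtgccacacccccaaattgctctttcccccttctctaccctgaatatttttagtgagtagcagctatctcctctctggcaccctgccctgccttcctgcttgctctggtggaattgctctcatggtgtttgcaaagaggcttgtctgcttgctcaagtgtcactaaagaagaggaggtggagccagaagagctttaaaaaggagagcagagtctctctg
Btc, chr5:91402995-91403244, minus strand: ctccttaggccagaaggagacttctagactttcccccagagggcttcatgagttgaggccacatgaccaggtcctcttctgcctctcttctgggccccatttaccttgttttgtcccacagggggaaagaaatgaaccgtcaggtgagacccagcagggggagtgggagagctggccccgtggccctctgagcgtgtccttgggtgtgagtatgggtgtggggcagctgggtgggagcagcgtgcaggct
The Areg window holds a cyclic AMP response element at -61 to -54, a GC box at -52 to -47 and a TATA box at -31 to -26, counted from the start site. Of 32841 mouse promoters of the same length, 1.55% hold the first of these motifs, 32.7% the second and 12.4% the third. The CCAAT box is in 33.9% and the AP-1 site in 6.75%. No letters of the 5 motifs are in the Egf or Btc windows. The Egf window has no CG pair, with an observed-to-expected ratio of 0, against 0.184 for Btc and 0.742 for Areg. Egf also has a second RefSeq start site. Its window (chr3:129725087-129725336, minus strand) has a ratio of 0.895 and no match to the motifs, so the contrast depends on the site taken. A match is a string of letters, and no binding was measured.

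Egf encodes the founding ligand of the family and lies on chromosome 3 (129471214 to 129548965 of GRCm39, minus strand). It was at 1537, 1519 and 1801 CPM in the 3 controls, at 698, 773 and 642 CPM at day 5, and at 25.7, 22.9 and 27.5 CPM at day 14. At day 21 it was at 48.1, 611 and 37.7 CPM. All 9 toxin libraries lay below all 3 controls, and day-21 replicate 2 lay just under the day-5 libraries, far above the other 5 libraries of days 14 and 21. Egf fell by 6.0 ± 0.985 on the log2 scale at day 14 (SE; adjusted p = 0.000472, edgeR), which is 63.8-fold lower, and by 2.80 ± 0.848 at day 21 (adjusted p = 0.0234). At day 5 its log2 fold change was -1.20 ± 0.804 (adjusted p = 0.362), and it fell by 1.20 ± 0.112 without day-21 replicate 2 (adjusted p = 1.26e-05, edgeR), a comparison that does not include that library. Day 21 without that library gave a fall of 5.25 ± 0.159 (adjusted p = 9.21e-10, edgeR). The day-21 fall did not pass in a fit of only its 6 libraries (adjusted p = 0.112, edgeR) or without control replicate 3, day-21 replicate 1 or day-21 replicate 3 (adjusted p = 0.0566, 0.0585 and 0.0505).

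From day 5 to day 14 Egf fell by 4.80 ± 0.931 (adjusted p = 0.00209, edgeR). From day 14 to day 21 it rose by 3.19 ± 0.865 (adjusted p = 0.0342), and by 0.76 ± 0.125 without day-21 replicate 2 (adjusted p = 0.00201, edgeR). The 2 remaining day-21 libraries, at 48.1 and 37.7 CPM, were above the highest day-14 library at 27.5 CPM. Over the 19 alternatives that gave a value, this rise did not pass in 12. Over these steps, Egf and Ereg were the members called between day 5 and day 14, 1 in each direction, where 24.7% of all genes rose and 26.1% fell. Between day 14 and day 21, Egf and Btc rose and Areg and Egfr fell, where 7.03% rose and 7.57% fell.

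Markers of the segments that make Egf also went down, by less. Their summed level over 10 genes, among them Umod (uromodulin), Slc12a1 (the loop's sodium-potassium-chloride transporter) and Slc12a3 (the distal tubule's sodium-chloride transporter), was 5947 to 6285 CPM in controls. It was 5060 to 5567 CPM at day 5, 2513 to 2780 CPM at day 14 and 3579 to 5352 CPM at day 21. Of the 10 markers, 4 fell at day 5, 8 at day 14 and 3 at day 21, and 1 rose at day 21. The count of Egf divided by the summed count of the 10 markers was 0.252 to 0.287 in controls, 0.115 to 0.153 at day 5 and 0.00823 to 0.0109 at day 14. At day 21 it was 0.0132, 0.114 and 0.0105 in replicates 1, 2 and 3. All toxin libraries were below all controls. An exact two-sided permutation test over libraries gave p = 0.1 for each day, the smallest that 3 against 3 allows, and 0.1 adjusted over the 3 tests.

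Taken marker by marker, the ratio of Egf to the marker at day 14 was below all controls for 9 of the 10. The log2 ratio less its control mean was -5.15 for Umod, -4.10 for Slc12a1 and -4.07 for Slc12a3. The exception was Pvalb, a calcium-binding protein of the early distal convoluted tubule, at 15.5, 17.2 and 19.0 CPM in controls and 1.66, 2.21 and 0 CPM at day 14. In bulk tissue, fewer cells of a type and less RNA per cell cannot be told apart. Proximal tubule markers, which do not belong to the cells that make Egf, summed to 8561 to 9428 CPM in controls and to 1256 to 1364 CPM at day 14, where 8 of 8 fell, and markers of injured tubules went from 104 to 110 CPM to 2415 to 2460 CPM. The part of these shifts in the fall of Egf was not tested.

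**Figure D2:**
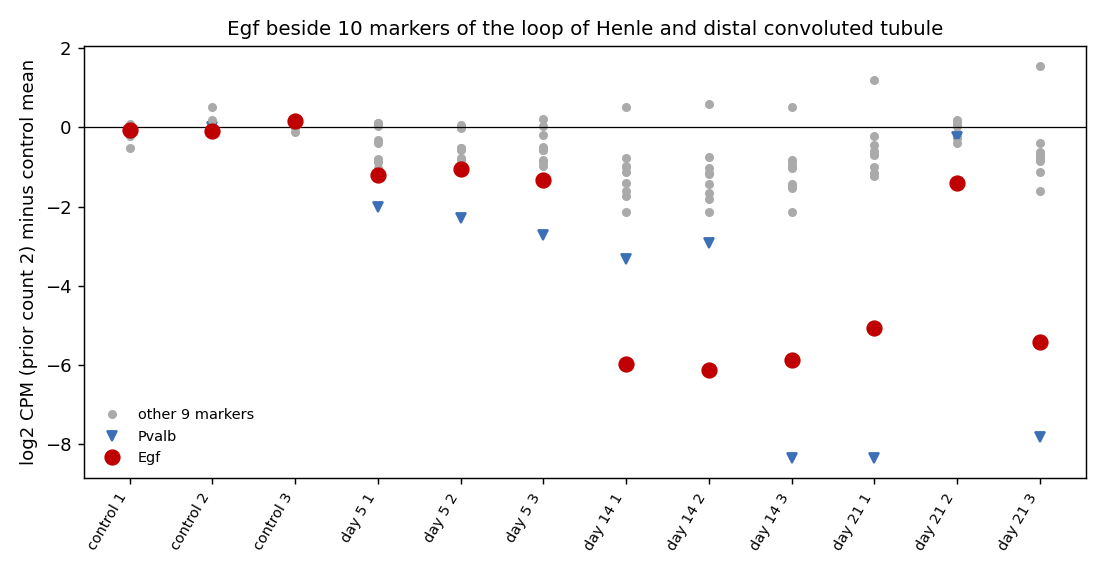
Egf (red circles), Pvalb (blue triangles) and the other 9 markers of the loop of Henle and distal convoluted tubule (grey) in each library. The vertical axis is log2 CPM, with a prior count of 2 that also places a count of 0, less the gene's own control mean. In the day-14 libraries Egf lies below all 9 grey markers, and Pvalb lies above Egf in replicates 1 and 2 and below it in replicate 3.

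Areg encodes amphiregulin, a ligand that epithelia and immune cells make in injury. Its raw counts were 1, 0 and 0 in controls and 35, 37 and 29 at day 5. They were 73, 62 and 48 at day 14 and 13, 5 and 29 at day 21. The 9 toxin libraries were all above all controls. Pooled over a group and relative to library totals, Areg was 103-fold higher at day 5 (exact 95% counting interval 18.1 to 4120), 225-fold at day 14 (39.9 to 8950) and 56.6-fold at day 21 (9.68 to 2280). The intervals are wide because they rest on 1 control count, and they cover counting error only. Areg rose in edgeR's test at all 3 days (adjusted p = 0.000477, 5.71e-05 and 0.00251) and in every alternative that gave a p for these comparisons.

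The level of Areg stayed small, at 1.37 ± 0.180 CPM (SD, n = 3) at its highest, on day 14. The ratio of pooled counts between day 14 and day 5 was 2.18 (1.70 to 2.81) relative to library totals, while the log2 fold change on the TMM scale was 0.51 ± 0.411 (adjusted p = 0.316, edgeR). From day 14 to day 21 Areg fell by 1.78 ± 0.439 (adjusted p = 0.0242, edgeR), and by 1.45 ± 0.373 without day-21 replicate 2 (adjusted p = 0.0174). The fall did not pass in the fit of 6 libraries or without any single day-14 library, with adjusted p from 0.0522 to 0.127.

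Ereg encodes epiregulin and lies beside Areg. It had no count in any control, 1, 3 and 6 counts at day 5, and 28, 16 and 20 counts at day 14. At day 21 it had 16, 1 and 22. Day-21 replicate 2, with its single count, was the lowest toxin library with day-5 replicate 1. Pooled counts of Ereg were set against a floor of 3 counts for the control group, relative to library totals. Its level was then 26.3-fold higher at day 14 and 15.7-fold higher at day 21. These ratios leave out the counting error of the toxin groups. In edgeR's test on the TMM scale Ereg rose at both days (adjusted p = 0.0019 and 0.00911). At day 5 the ratio was 3.41. Ereg there had an adjusted p of 0.112 (edgeR), or 0.0107 in the fit without day-21 replicate 2. From day 5 to day 14 pooled counts relative to library totals rose 7.71-fold (3.93 to 16.8). On the TMM scale Ereg rose by 2.34 ± 0.742 (adjusted p = 0.0273, edgeR). This rise did not pass when any of 5 of the 6 libraries compared was left out (adjusted p = 0.0511 to 0.0892).

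Epgn (epigen), Ereg, Areg and Btc lie within 375.5 kb of chromosome 5 (91175323 to 91550853 of GRCm39). Epgn had 2, 4, 4 and 1 counts summed over the libraries of control, day 5, day 14 and day 21, and no difference was detectable at this depth. On the far side of Epgn, beyond the folate enzyme gene Mthfd2l, lie 7 chemokine genes. Cxcl5, Pf4, Cxcl3, Cxcl1 and Cxcl2 rose at day 14, with counts summed over a group of 3, 26, 0, 122 and 5 in controls and 740, 345, 87, 4641 and 1298 at day 14. Ppbp had 29 and 31 counts and a log2 fold change of -0.32 (adjusted p = 0.59, edgeR), and Cxcl15, with 2 and 5, had too few to be tested. Outside the chemokines, Mthfd2l had a log2 fold change of 0.06 at day 14 (adjusted p = 0.818, edgeR), and Parm1, beyond Btc, of 0.28 (adjusted p = 0.13). Btc itself did not pass at day 14 either. These neighbours were chosen by position after the values of the cluster were seen.

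Markers of immune cells moved with Areg and Ereg in part. The 7 macrophage and monocyte markers summed to 67.8 to 88.5 CPM in controls and 80.2 to 88.9 CPM at day 5, and to 695 to 720 CPM at day 14 and 208 to 410 CPM at day 21. All 7 rose at day 14. At day 5, when Areg had already risen, 3 rose and Csf1r, the receptor for a macrophage growth factor, fell by 0.68, from 42.7 to 53.1 CPM to 28.3 to 32.1 CPM. The 5 neutrophil markers summed to 0.241 to 0.415 CPM in controls and 0.825 to 1.59 CPM at day 5, and to 4.44 to 5.5 CPM at day 14 and 1.61 to 3.43 CPM at day 21. Of these S100a8, S100a9 and Csf3r could be tested, and all 3 rose at each day, by 2.80, 2.36 and 1.13 at day 5. The other 2, Ly6g and Mpo, were at 0 in all control and day-5 libraries. The 8 markers of injured tubules summed to 483 to 708 CPM at day 5, against 104 to 110 CPM in controls, and 6 of them rose. Which cells made Areg and Ereg was not tested.

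Hbegf was at 18.2, 14.4 and 19.6 CPM in controls and at 24.4, 29.1 and 23.0 CPM at day 5. It was at 19.6, 22.2 and 25.2 CPM at day 14 and at 19.2, 23.8 and 27.0 CPM at day 21. The day-5 libraries were all above the controls, and so were those of day 14, though the lowest lay barely above the highest control. The day-21 libraries overlapped the controls. Hbegf rose by 0.55 ± 0.158 at day 5 (adjusted p = 0.0386, edgeR), a 1.47-fold change. The log2 fold change was 0.36 ± 0.158 at day 14 (adjusted p = 0.0688) and 0.42 ± 0.158 at day 21 (adjusted p = 0.0501). The day-5 rise did not pass with median-of-ratios size factors (adjusted p = 0.0533) or in 7 of the 12 fits that left out 1 library, those without any control or day-5 library or without day-14 replicate 2 (adjusted p = 0.0605 to 0.172).

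Scaled to library totals, Hbegf was called at each day, with log2 fold changes of 0.69 at day 5, 1.09 at day 14 and 0.91 at day 21. Of the 5 podocyte markers, whose cells carry the toxin receptor, 4 fell at day 5, 4 at day 14 and 3 at day 21. Whether reads of the transgene took part in these values of Hbegf was not tested.

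Btc encodes betacellulin, a ligand that also binds ErbB4. It was at 6.14, 4.82 and 6.30 CPM in controls, 4.26, 3.97 and 4.34 CPM at day 5, 5.57, 4.84 and 5.82 CPM at day 14, and 8.55, 7.38 and 12.1 CPM at day 21. Every day-5 library was below every control and every day-21 library was above. Btc rose by 0.70 ± 0.183 at day 21 (adjusted p = 0.013, edgeR), 1.63-fold, and by 0.84 ± 0.164 without day-21 replicate 2 (adjusted p = 0.000895). Under library totals the day-21 rise was 1.21 (adjusted p = 0.00326), and Btc also rose at day 14, by 0.64 (adjusted p = 0.0379), where its TMM value was -0.09 (adjusted p = 0.693). From day 14 to day 21 it rose by 0.79 ± 0.182 (adjusted p = 0.0187, edgeR). That rise did not pass under library totals (adjusted p = 0.133), in the fit of 6 libraries (adjusted p = 0.122) or without day-14 replicate 1 or 2 (adjusted p = 0.0616 and 0.0843). At day 5 its log2 fold change was -0.46 ± 0.185 (adjusted p = 0.128), and it fell in the fits without day-21 replicate 2 or 3 (adjusted p = 0.0423 and 0.0475) and in the fit of 6 libraries (adjusted p = 0.0267). The day-21 rise did not pass in the fit of 6 libraries (adjusted p = 0.0847) or without control replicate 2 (adjusted p = 0.0591).

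Collecting duct markers, 6 genes among them Aqp2 and Aqp3, moved in the same direction as Btc at day 5 and day 21. They summed to 341 to 433 CPM in controls, 225 to 254 CPM at day 5, 366 to 508 CPM at day 14 and 454 to 876 CPM at day 21. Of the 6, 2 fell at day 5 and 4 rose at day 21. Their part in the levels of Btc was not tested.

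Tgfa encodes transforming growth factor alpha. It was at 4.98, 4.43 and 4.75 CPM in controls, 3.50, 4.70 and 5.33 CPM at day 5, 6.23, 5.42 and 4.99 CPM at day 14 and 5.18, 4.21 and 4.72 CPM at day 21. Only the day-14 libraries lay apart from the controls, and barely so. It did not pass at any day, with log2 fold changes of -0.06 ± 0.167, 0.23 ± 0.166 and -0.00429 ± 0.167 (adjusted p = 0.842, 0.244 and 0.985, edgeR). Scaled to library totals its day-14 value was 0.96 and passed (adjusted p = 0.00237).

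**Figure D3:**
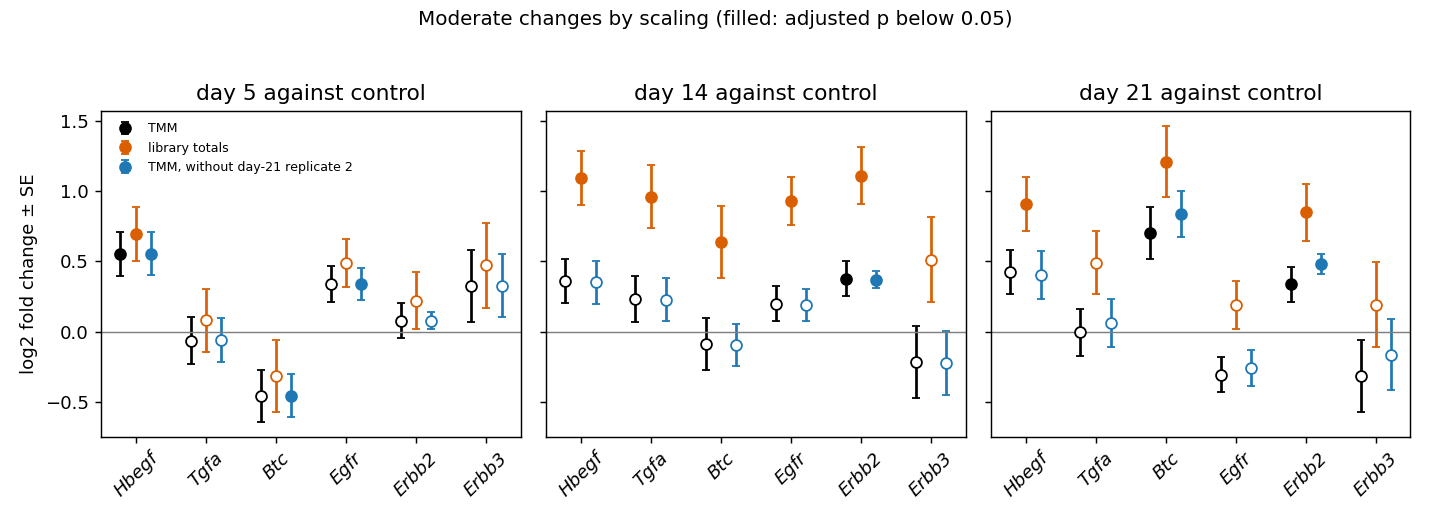
Log2 fold change ± SE against control for the 6 members with moderate changes, at day 5, day 14 and day 21. Black points are scaled by TMM, orange by library totals, blue by TMM without day-21 replicate 2, and filled points passed an adjusted p of 0.05. At day 14 all 6 orange points lie above 0, at 0.51 to 1.11, while the black points of Btc and Erbb3 lie below it.

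Egfr, the receptor that binds all 7 ligands, was at 45.3, 67.3 and 52.4 CPM in controls, 66.4, 73.8 and 68.8 CPM at day 5, 64.6, 63.6 and 61.4 CPM at day 14 and 48.0, 41.1 and 44.4 CPM at day 21. Control replicate 2 overlapped the day-5 libraries, and the other 2 controls were below all of them. Its log2 fold change at day 5 was 0.34 ± 0.126 (adjusted p = 0.0969, edgeR), and Egfr rose in the fits without day-21 replicate 2 (adjusted p = 0.0386) and without control replicate 2 (adjusted p = 0.0152). It did not pass at day 14 (0.20 ± 0.126, adjusted p = 0.191) or day 21 (-0.31 ± 0.126, adjusted p = 0.0697). At day 14 Egfr rose under library totals by 0.93 (adjusted p = 0.000543) and without control replicate 2 by 0.33 (adjusted p = 0.0169). At day 21 it fell with median-of-ratios factors (adjusted p = 0.0444), with DESeq2 (adjusted p = 0.0321) and without control replicate 1 (adjusted p = 0.0187), while under library totals its value was 0.19 (adjusted p = 0.339). From day 14 to day 21 Egfr fell by 0.51 ± 0.126 (adjusted p = 0.0252, edgeR), with all 3 day-21 libraries below all 3 of day 14. That fall did not pass in the fit of 6 libraries or without any day-14 library (adjusted p = 0.0643 to 0.0858).

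Erbb2, the partner of the other receptors, was at 38.3, 37.7 and 40.9 CPM in controls and 41.4, 39.1 and 42.9 CPM at day 5. It was at 52.8, 51.3 and 47.9 CPM at day 14 and 56.6, 38.0 and 52.9 CPM at day 21. Every day-14 library was above every control, and at day 21 replicates 1 and 3 were while replicate 2 was among the controls. Erbb2 rose by 0.38 ± 0.125 at day 14 (adjusted p = 0.0219, edgeR) and by 0.34 ± 0.125 at day 21 (adjusted p = 0.0494). Without day-21 replicate 2 the rises were 0.37 ± 0.0622 and 0.48 ± 0.0688 (adjusted p = 0.00024 and 8.29e-05). Under library totals they were 1.11 and 0.85 (adjusted p = 0.000587 and 0.00557). The day-14 rise did not pass without any one control or without day-14 replicate 1 or 2 (adjusted p = 0.0506 to 0.089), and the day-21 rise did not pass in 17 of 20 alternatives. Mien1 overlaps Erbb2 on the opposite strand with 27542 counts over the 12 libraries, against 20871 for Erbb2. No source used here gives the strand setting of the counting, so reads of the 2 genes may have been shared.

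Erbb3, which the neuregulins bind, was at 68.5, 57.5 and 66.1 CPM in controls, 52.7, 89.4 and 98.5 CPM at day 5, 59.8, 59.4 and 46.1 CPM at day 14 and 72.1, 39.2 and 43.0 CPM at day 21. Replicates differed as much as groups, and every toxin group overlapped the controls. Its log2 fold changes were 0.32 ± 0.257, -0.22 ± 0.257 and -0.32 ± 0.257 (adjusted p = 0.447, 0.483 and 0.332, edgeR). Under library totals the values were 0.47, 0.51 and 0.19, and none passed (adjusted p = 0.334, 0.14 and 0.587).

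To set genes beside each other, levels were divided by annotated exon length, in CPM per kb. In controls the order was Egf at 115 ± 11.2 (SD, n = 3), Erbb3 at 10.7 ± 0.958, Erbb2 at 7.48 ± 0.328, Egfr at 4.86 ± 0.990, Hbegf at 3.60 ± 0.556, Btc at 1.27 ± 0.180 and Tgfa at 0.728 ± 0.0429 CPM per kb. Epgn, Areg and Ereg were at 0.0171 CPM per kb or less, Areg in 1 library only at 0.0244. Of these neighbours only Egfr and Hbegf overlapped between libraries, among the genes above Epgn. At day 14 the order was Erbb2 at 9.73 ± 0.488, Erbb3 at 9.16 ± 1.29, Egfr at 5.58 ± 0.144, Hbegf at 4.62 ± 0.577, Egf at 1.80 ± 0.165, Btc at 1.20 ± 0.113, Areg at 1.13 ± 0.148 and Tgfa at 0.855 ± 0.0968 CPM per kb. There Erbb2 and Erbb3 overlapped, and so did Btc and Areg. Annotated lengths span 1215 bases for Areg to 14074 for Egf and include exons that a kidney may not use, so these levels are rough.

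Egf made up 94.9 to 95.8% of the reads per kb of the 7 ligands in controls and 86.4 to 86.8% at day 5. At day 14 its share was 17.2 to 19.4%, and at day 21 it was 32.8, 85.5 and 21.6% in replicates 1, 2 and 3. The share of Hbegf was 2.64 to 3.27% in controls, 8.86 to 9.48% at day 5 and 43.3 to 50.5% at day 14, where it was the most abundant ligand. At day 21 it was 38.1, 9.70 and 45.1%. Areg reached 9.32 to 13.2% at day 14, and Btc 18.1 and 21.7% in day-21 replicates 1 and 3. Shares sum to a whole, so the fall of Egf raises the shares of the rest.

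Summed over ligands and receptors, ligand reads per kb were 4.95 to 5.72 times those of the 3 receptors in controls. The ratio was 1.72 to 2.53 at day 5, 0.364 to 0.463 at day 14, and 0.385, 2.91 and 0.583 at day 21. Every toxin library was below every control. For the ligands other than Egf, the same ratio was 0.209 to 0.264 in controls, 0.234 to 0.333 at day 5, 0.294 to 0.375 at day 14 and 0.259, 0.421 and 0.457 at day 21. The turn from more ligand than receptor reads to fewer was thus within the Egf term of the sum.

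**Figure D4:**
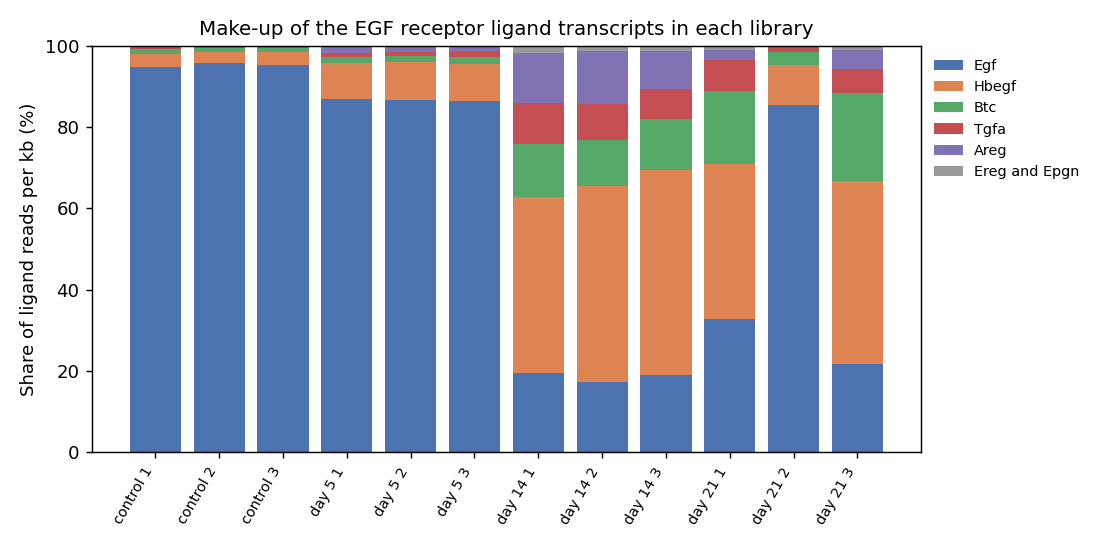
Share of each ligand in the reads per kb of the 7 ligands (vertical axis, percent) in each of the 12 libraries. Egf (blue) takes 94.9 to 95.8% in the control bars and 17.2 to 19.4% in the day-14 bars, where Hbegf (orange) takes 43.3 to 50.5%; the bar of day-21 replicate 2 is at 85.5% Egf.

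Of the remaining receptor and its ligands, 1 gene of 3 tested passed. Erbb4, the fourth receptor, was at 25.5, 20.7 and 27.8 CPM in controls, 18.1, 17.8 and 18.3 CPM at day 14 and 20.8 to 30.0 CPM at day 21. It fell by 0.45 ± 0.144 at day 14 (adjusted p = 0.0196, edgeR) and did not pass at day 5 or day 21 (adjusted p = 0.934 and 0.949). All 3 day-14 libraries were below the controls, and under library totals no gene of this list fell at day 14. The fall did not pass without control replicate 3 or without day-14 replicate 2. Of the neuregulins, ligands of ErbB3 and ErbB4, Nrg2 was at 0.171 CPM in controls and 0.349 CPM at day 14 (adjusted p = 0.152), and Nrg4 at 2.14 and 2.10 CPM (adjusted p = 0.977). Nrg3 had no count in any library, and Nrg1 stands in 2 rows of the table and was not used.

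Genes of ligand release rose more often than they fell. Of 9 tested, 4 rose at day 5, 7 rose and 2 fell at day 14, and 5 rose and 2 fell at day 21. Of all genes, 9.77% rose and 5.09% fell at day 5, 31.2% and 28.8% at day 14, and 24.3% and 18.5% at day 21. The list's median log2 fold changes were 0.34, 0.75 and 0.33. Adam12, a membrane protease that can cut HB-EGF, was at 3.49 to 4.64 CPM in controls and at 22.8 to 26.8 CPM at day 14, and rose by 2.56 ± 0.244 (adjusted p = 2.12e-05, edgeR). Frmd8, a partner of the iRhom proteins that carry ADAM17 to the surface, rose by 0.92 ± 0.102 (adjusted p = 5.1e-05), from 22.2 to 24.9 CPM to 44.0 to 45.2 CPM. The 2 that fell at day 14 were Adam9 and Timp3, an inhibitor of metalloproteases, which were named after their values were seen and fell by 0.62 and 1.26. Without day-21 replicate 2, 6 rose and 1 fell at day 5, where 17.4% of all genes rose and 14.9% fell. Without control replicate 1 or 3 or day-5 replicate 3 only 1 gene of the list was called there. Under library totals 4 rose and 1 fell at day 5, where 1918 of 19821 genes rose and 552 fell. At day 14, 7 rose and 1 fell on that scale, where 66.4% of all genes rose and 11.2% fell. Median-of-ratios factors gave 3 and 1 at day 5, where 1735 genes rose and 1187 fell.

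Adaptors and kinases between the receptors and ERK were called in shares near those of all genes at days 14 and 21. Of 17, 2 rose at day 5, where 9.77% of all genes rose. At day 14 5 rose and 6 fell, beside 31.2% and 28.8% of all genes, and at day 21 4 rose and 3 fell, beside 24.3% and 18.5%. The medians were 0.03, 0.07 and 0.02. Nras, a small GTPase of this pathway, was at 27.7 to 33.3 CPM in controls, 66.0 to 68.5 CPM at day 14 and 64.5, 34.3 and 68.2 CPM at day 21. It rose by 1.13 ± 0.201 at day 14 (adjusted p = 0.000741, edgeR). The split depends on scaling, since under library totals 15 of the 17 rose at day 14 and none fell, where 66.4% of all genes rose. Without day-21 replicate 2, 6 rose and 7 fell at day 21, where 33.2% of all genes rose and 28.4% fell. At that day 9 of the 11 other leave-one-out fits called 4 genes of the list.

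Of 19 genes that restrain the receptors or ERK, 4 rose and 2 fell at day 5, 12 rose and 3 fell at day 14, and 7 rose and 4 fell at day 21, with medians of 0.17, 0.41 and 0.13. Of all genes, 9.77% rose and 5.09% fell at day 5, 31.2% and 28.8% at day 14, and 24.3% and 18.5% at day 21. Under library totals 17 rose and none fell at day 14, where 66.4% of all genes rose. Socs3, an inhibitor of receptor signalling that cytokines also induce, was at 1.01 to 1.57 CPM in controls and rose to 5.74 to 6.99 CPM at day 5 and 27.4 to 33.5 CPM at day 14, a rise of 4.50 ± 0.340 (adjusted p = 6.28e-06, edgeR). At day 21 it was at 36.0, 13.5 and 28.5 CPM. Dusp5, a phosphatase of ERK that ERK itself induces, rose by 1.96 ± 0.290 at day 5 and 2.14 ± 0.290 at day 14 (adjusted p = 0.00131 and 0.000159). Errfi1, an inhibitor that binds the EGF receptor directly and was named after its values were seen, fell by 1.02 ± 0.184 at day 14 (adjusted p = 0.000808).

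Of 15 transcripts commonly induced through ERK, 6 rose at day 5, 10 at day 14 and 11 at day 21. Of all genes, 9.77%, 31.2% and 24.3% rose. At day 21, 1 of the 15 fell, where 18.5% of all genes fell. Under library totals all 15 rose at day 14, beside 66.4% of all genes. Their medians were 1.01, 1.71 and 1.25. Egr2, a transcription factor, was at 0.185 to 0.445 CPM in controls, 1.54 to 2.85 CPM at day 5, 6.51 to 9.28 CPM at day 14 and 1.80 to 3.64 CPM at day 21. It rose by 4.60 ± 0.387 at day 14 (adjusted p = 1.11e-05, edgeR). Maff, another transcription factor, was at 1.10 to 1.69 CPM in controls and highest at day 5, at 16.8 to 19.2 CPM, a rise of 3.67 ± 0.353 (adjusted p = 0.000103). The gene that fell at day 21 was Etv5, by 0.76 ± 0.166 (adjusted p = 0.00634, edgeR), and under library totals no gene of the list fell. Many other signals induce these genes, and no protein or phosphorylation was measured.

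The profiles nearest to each member were found by the mean absolute difference in log2 CPM, less each gene's control mean, over the 12 libraries. Among 13647 candidates, the nearest to Egf were Inmt at 0.179, Cyp2d9 at 0.315 and Slc22a22 at 0.364. Nearest to Areg were Cxcl1 at 0.308, Tlr2 at 0.442 and Gm42793 at 0.523, with Cxcl1 also a neighbour on chromosome 5. The prior count of 2 makes changes from near 0 smaller on this scale. Areg was at -4.25 to -3.60 in controls and 0.289 to 0.655 at day 14. Fitted log2 fold changes at day 14 were 6.68 for Areg, 7.18 for Ereg, 4.83 for Cxcl1 and 7.5 for Cxcl2. The genes nearest to Areg and Ereg may thus depend on the prior count. Nearest to Ereg were Cdh6 at 0.235, Nt5c1a at 0.261 and Klf6 at 0.261, and nearest to Btc were Ap1m2 at 0.124, Stk39 at 0.126 and Epb41l4b at 0.128. For Hbegf they were Banf1, Aldh1l2 and Thoc6, at 0.124 to 0.138. Members with small changes have many near profiles, and Erbb2 had Zfp821 at 0.0469. All points share the same 12 libraries, and the measure is a description.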

How the data were processed

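The table deposited by the authors holds raw read counts for each gene in 12 libraries, with gene symbols, GRCm39 coordinates and exon lengths. The submitters' processing notes name fastp 0.20.0, the counter featureCounts and the build GRCm39. An aligner, annotation release and strand setting are not named there. Columns were matched to samples by name, with groups and replicate numbers taken from titles. The labels put all libraries in 1 batch. The design text calls the replicates biological.

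Total counts per library ran from 31023852 to 46420299. Genes passing filterByExpr (a minimum count of 10 and total of 15) were fitted with edgeR 4.0.16 in R 4.3.3, with TMM factors and 1 coefficient per group. P-values were adjusted by Benjamini-Hochberg over all 19821 genes of a comparison, and a standard error is the size of the log2 fold change over the root of its F statistic. CPM are counts per 1000000 of the TMM-scaled library size, and per-length levels divide these by the deposited exon length in kb. Log2 CPM used a prior count of 2. Ratios of genes with few counts pool a group and are relative to library totals, with exact 95% intervals for counting error only, since reads carry no molecular identifiers. The fit was tested on simulated data with the same spread for every gene. These data held no outlying library and no shift in scaling between groups, so they do not test the fit under those conditions.

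The members and gene lists were chosen with earlier results of these data known, so their direction is no independent evidence. Named were the 10 members, the 2 genes per list with the smallest adjusted p in the comparisons with control, every gene of the list of Erbb4 and neuregulins, and the 3 nearest profiles per member, among genes of mean log2 CPM 1 or more. 1 gene that this rule names is not reported here. Others were named after their values were seen. Alternatives were median-of-ratios factors, library totals, DESeq2 1.42.0, limma-voom 3.58.1, no filter, a stricter one (1 CPM or more in 3 libraries), a replicate block, a fit of only the 6 libraries concerned, and leave-one-out fits. Promoter sequences are RefSeq's, in GRCm38.p6, and were not joined to the GRCm39 coordinates.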

Additional observations from a re-analysis of the deposited data

Results flagged for a closer look

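Members whose levels differed between one day after toxin and the next were set apart by edgeR's test of day against day, with n = 3 libraries per group. From day 5 to day 14 the log2 fold change was -4.80 for Egf (adjusted p = 0.00209) and 2.34 for Ereg (adjusted p = 0.0273). From day 14 to day 21 it was 3.19 for Egf (adjusted p = 0.0342), 0.791 for Btc (adjusted p = 0.0187), -1.78 for Areg (adjusted p = 0.0242) and -0.505 for Egfr (adjusted p = 0.0252). The day-21 values include replicate 2, which stood apart. Without it the same 4 were 0.758, 0.934, -1.45 and -0.451, and each passed (adjusted p = 0.00201, 0.00261, 0.0174 and 0.0262).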

How the results depend on the processing

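Member fold changes that passed kept their direction in all alternatives, and of 331 such values 65 no longer passed. Of 555 values for changes that had not passed, 33 passed in the same direction and 19 changed sign. Among the 19, Btc at day 14 and Egfr from day 5 to day 14 also passed. Both did so under library totals, at 0.639 and 0.445 (adjusted p = 0.0379 and 0.0362, edgeR). The causes were not tested. DESeq2 gave no adjusted p for Egf in any comparison, or for Ereg from day 14 to day 21, and these are left out.

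Scaled to library totals, sign changes were Tgfa at day 5 (0.0827), Btc (0.639) and Erbb3 (0.511) at day 14, and Tgfa (0.489), Egfr (0.189) and Erbb3 (0.191) at day 21. From day 5 to day 14 they were Hbegf (0.394), Egfr (0.445) and Erbb3 (0.0381), and from day 14 to day 21 Hbegf (-0.183). Members called were then 8 of 9 at day 14 and 6 from day 5 to day 14, beside 15369 and 13405 of 19821 genes. From day 5 to day 14 Tgfa (0.879), Btc (0.953) and Erbb2 (0.886) passed on this scale (adjusted p = 0.00553, 0.00741 and 0.00337, edgeR). On the TMM scale they had not passed (adjusted p = 0.155, 0.116 and 0.0637, edgeR). Adaptors and kinases called were 1 of 17 at day 5 and 15 at day 21, beside 2470 and 12512 of all genes. Of all calls, rises were 65.7% at day 5, 52.1% at day 14 and 56.8% at day 21, against 77.7, 85.6 and 88.3% under library totals. From day 5 to day 14 they were 48.6% against 86.1%, and from day 14 to day 21 48.2% against 15.8%.

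With only the 6 libraries compared, 4 members and 6982 genes were called at day 5, with 7 genes of ligand release and 4 adaptors and kinases. At day 14, 2 genes of the Erbb4 and neuregulin list were called, beside 13339 of 19320 genes. At day 21, 0 members and 1631 genes were called, with 3 genes of ligand release, 0 adaptors and kinases, 3 brakes and 5 transcripts induced through ERK, and Tgfa was at 0.000537. Calls were 5 members and 12793 genes from day 5 to day 14, and 0 members and 263 genes from day 14 to day 21. In the fit of 12, 4 members and 2893 genes were called from day 14 to day 21. In edgeR's fits of 6 libraries, 3 members at day 21 (Egf, Hbegf and Btc) and 4 from day 14 to day 21 were under an unadjusted p of 0.05. DESeq2 and limma-voom were run on all 12 libraries only. At an adjusted p under 0.05 DESeq2 called 4 and 3 members in these comparisons, and limma-voom called 4 and 3. With all libraries edgeR called 8490 genes at day 21.

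Median-of-ratios factors left 1 member and 1 adaptor or kinase at day 5, beside 2922 of 19821 genes. No filter left 1 adaptor or kinase at day 5 and 4 at day 21, beside 2463 and 7559 of 34325 genes. With a CPM of at least 1 in 3 libraries Tgfa was at 0.0111 at day 21. DESeq2 called 1 member from day 5 to day 14, beside 10402 of 19678 genes.

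Leaving out 1 library at a time gave 1 to 6 members at day 5, 3 to 5 at day 21, 1 to 4 from day 5 to day 14 and 0 to 4 from day 14 to day 21. All genes called in the same comparisons, in that order, were 1570 to 6691, 4918 to 12738, 7941 to 12330 and 852 to 4951. They were 10405 to 13572 at day 14, and each highest value left out day-21 replicate 2. List calls at day 5 were 1 to 7 for ligand release and 0 to 3 for adaptors and kinases. They were 4 to 13 for adaptors and kinases at day 21, and 0 to 2 for Erbb4 and neuregulins at day 14. Values that changed sign were Tgfa at day 5 (-0.214 to 0.0894) and day 21 (-0.0879 to 0.0609). From day 14 to day 21 they were Hbegf (-0.051 to 0.19), Erbb2 (-0.152 to 0.111) and Erbb3 (-0.419 to 0.0616).

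No clear pairing by replicate number was seen, and pairing was not tested. Over 18 same-number pairs, correlations of deviations from group means were -0.14 to 0.171 (median -0.00351), with 4 over 0.1. Over 36 other-number pairs they were -0.18 to 0.202 (median -0.00607), with 3 over 0.1. Of 12 libraries, 6 were closest to their own number. The replicate block called 4 members at day 21 in place of 5 and 3 in place of 4 from day 14 to day 21. It called 1 adaptor or kinase at day 5 in place of 2. All genes called in these comparisons were then 8218, 2211 and 2653.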
